A study of Mus musculus with 12 samples.

Results

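The 10 genes described here belong to the cell-surface arm of Toll-like receptor signalling in mouse liver: the receptors Tlr1, Tlr2, Tlr4, Tlr5 and Tlr6, the co-receptors Cd14 and Ly96, the adaptor Myd88, and the inhibitors Irak3 and Tnfaip3. Features were taken where the platform's probe-to-gene table gives a listed symbol and no other, with the feature of highest mean signal standing for a gene. All 10 genes had exactly 1 such feature, out of 30145 genes with a feature of their own and 65956 transcript features. The livers came from 6 ENT3 -/- mice (KO), 3 female and 3 male, and from 6 ENT3 +/+ mice (WT), 3 female and 3 male. All were C57BL6/J mice aged 12 weeks, with 1 Affymetrix transcriptome array per mouse. Sex was read from the letter F or M that ends each title. ENT3, encoded by Slc29a3, is an equilibrative nucleoside transporter of lysosomal and mitochondrial membranes, and neither the deleted stretch nor the cells that lack it are described in the labels. Values are log2 signals as deposited, differences are KO minus WT, each given ± its standard error (SE) in a limma fit to all 12 arrays, and a gene was called when its Benjamini-Hochberg adjusted p over all 65956 features was under 0.05.

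Surface Toll-like receptors recognise molecules of the microbial surface. TLR2 pairs with TLR1 or TLR6 to bind bacterial lipoproteins, TLR5 binds flagellin, and TLR4 binds lipopolysaccharide in a complex with MD-2, the product of Ly96, to which CD14 delivers the ligand. These receptors signal through the adaptor MyD88 to the kinases of the IRAK family and on to NF-kB. IRAK-M, the product of Irak3, is a family member found mainly in monocytes and macrophages that dampens this signal, and A20, the product of Tnfaip3, is a ubiquitin-editing enzyme that NF-kB induces and that ends its activation. In liver, Kupffer cells, sinusoidal endothelium and hepatocytes all meet gut-derived ligands from the portal blood.

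In KO livers 5 of the 10 genes rose and none fell, while 9.75% of all features were called, 5.28% rising and 4.47% falling (limma adjusted p under 0.05). Among the 30145 genes with a feature of their own, falls were more frequent than rises: 14.2% were called, 5.82% rising and 8.33% falling. After quantile normalization the split over all features turned towards lower calls, with 2555 higher and 4091 lower, against 3482 and 2950 on the deposited scale. All 10 genes kept the sign of their difference after quantile normalization and with median-centred arrays, but genes near the threshold crossed it. After quantile normalization 3 were called higher (Cd14, Irak3 and Tnfaip3) and 2 lower (Tlr5 and Ly96). With median-centred arrays 4 were higher, Myd88 joining them, and the same 2 lower. Among the 5 called genes the difference was 2.35 ± 0.29 for Irak3, 1.08 ± 0.14 for Cd14, 0.89 ± 0.12 for Tnfaip3, 0.66 ± 0.16 for Myd88 and 0.37 ± 0.08 for Tlr2. Ly96 and Tlr5 had lower means in KO livers but missed the threshold, and Tlr1, Tlr4 and Tlr6 had higher means that missed it too. The median difference of the 10 genes was 0.52, beside 0.05 over all features. Exact permutation of genotype within sex, two-sided and not adjusted, gave p = 0.005 for Tlr1, Tlr2, Ly96, Irak3 and Tnfaip3, the smallest p that 400 arrangements allow. For the other genes the exact permutation p was 0.01 for Tlr5 and Cd14, 0.02 for Tlr4, 0.03 for Myd88 and 0.055 for Tlr6. The set was proposed with results of these data in view, so its count is a description of these genes.

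**Figure D1:**
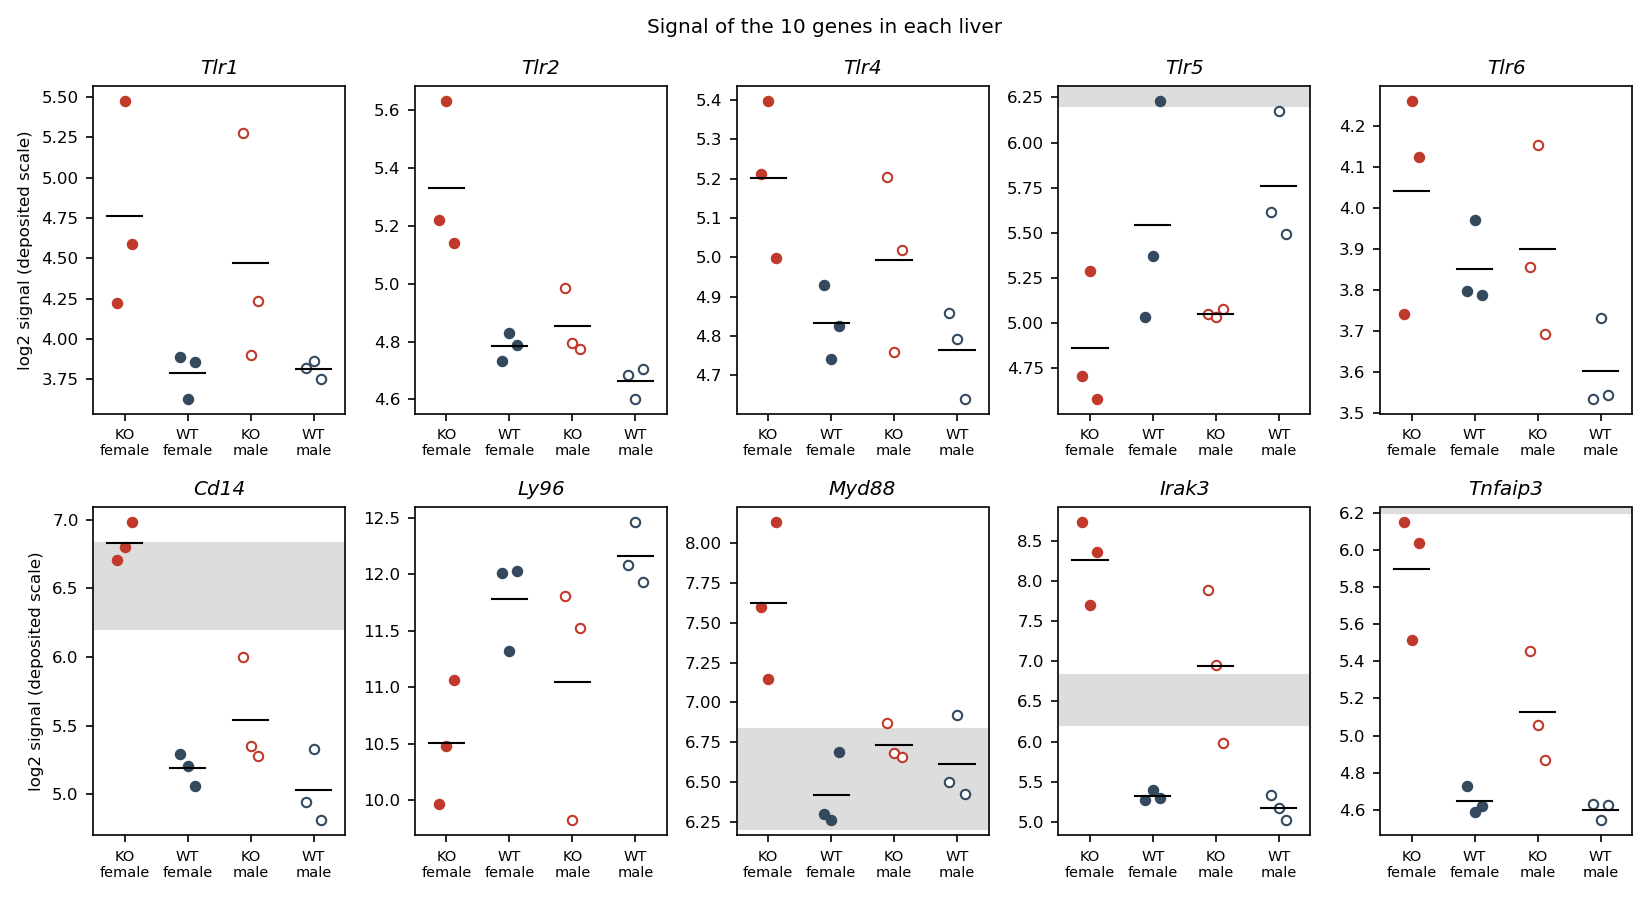
Log2 signal on the deposited scale (vertical axes, a separate range for each gene) of the 10 genes in each of 12 livers, with KO and WT females as filled and KO and WT males as open points and the mean of 3 mice as a bar. Grey bands span the 95th percentile of the negative control features over the 12 arrays, 6.20 to 6.83, where it falls within a panel. It was 6.40 to 6.83 on KO arrays and 6.20 to 6.39 on WT arrays. Every KO point lies above every WT point for Tlr1, Irak3 and Tnfaip3, for Tlr1 narrowly (3.90 against 3.89 at the nearest).

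Array measures and the state of the tissue stood beside these differences. Slc29a3 averaged 4.13 ± 0.04 in KO livers and 5.07 ± 0.18 in WT livers (SD, n = 6 each), and differed by -0.94 ± 0.07 (limma adjusted p = 0.000324). Those values were below the negative controls' 95th percentile, and it is not known here whether the feature covers the deleted stretch. Poly-A spikes, which are bacterial RNAs mixed in ahead of the labelling step, averaged 5.44 ± 0.36 on KO arrays and 6.30 ± 0.32 on WT arrays (two-sided p = 0.005 by exact permutation of genotype within sex, Benjamini-Hochberg p = 0.01 over 4 array measures). Negative control medians were 3.86 to 3.97 on KO arrays and 3.75 to 3.84 on WT arrays (exact permutation p = 0.005, Benjamini-Hochberg p = 0.01). Their 95th percentile was 6.40 to 6.83 on KO arrays and 6.20 to 6.39 on WT arrays. Signals of Tlr1, Tlr2, Tlr4, Tlr6 and Tnfaip3 lay below it on every array, and the part of this shift in their differences was not tested. With the poly-A level as a covariate all 10 genes kept the sign of their difference and none was called by limma, against 5 at an unadjusted p under 0.05. SEs were wider in that fit. The differences were 3.05 ± 0.70 for Irak3, 1.27 ± 0.35 for Cd14 and 0.94 ± 0.32 for Tnfaip3. They were 0.85 ± 0.42 for Myd88, 0.39 ± 0.22 for Tlr2, 0.66 ± 0.66 for Tlr1 and 0.19 ± 0.24 for Tlr4. For Tlr6, Tlr5 and Ly96 they were 0.66 ± 0.23, -0.09 ± 0.51 and -2.37 ± 0.77. Poly-A levels ran from 5.10 to 6.06 on KO arrays and from 5.98 to 6.81 on WT arrays, so the fit can hardly separate them from genotype. The negative control level as a covariate gave likewise 10 unchanged signs and 0 calls by limma, with 4 genes at an unadjusted p under 0.05. Here the differences were 2.86 ± 0.87 for Irak3, 1.02 ± 0.42 for Cd14, 0.77 ± 0.38 for Tnfaip3, 0.47 ± 0.50 for Myd88 and 0.48 ± 0.26 for Tlr2. The part these levels play in the results was not tested. Of 9 measured hepatocyte markers, 6, Alb among them, lay at the array ceiling of 19.93 in all 12 livers, where no difference can be seen.

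Markers of myeloid cells differed between the genotypes in the same arrays. Beside the marker counts below, 5.28% of all features rose and 4.47% fell. Of 13 measured monocyte and macrophage markers 9 rose and none fell, and their mean log2 level was 7.05 to 10.43 in KO livers and 5.80 to 6.53 in WT livers. Csf1r, the receptor for macrophage colony-stimulating factor, rose by 3.07 ± 0.48 and Cybb, a subunit of the phagocyte oxidase, by 3.68 ± 0.48, while Lyz2 differed by 1.84 ± 0.69 (limma adjusted p = 0.138). Of the 13 neutrophil markers 9 rose and none fell, with mean levels of 4.92 to 7.86 in KO livers and 4.13 to 4.60 in WT livers. The median difference of the neutrophil markers was 0.99, and S100a8, a subunit of calprotectin, rose by far more, 8.30 ± 1.02. Of 10 Kupffer cell markers 4 rose and 1 fell, with mean levels of 9.05 to 11.41 in KO livers and 7.64 to 8.80 in WT livers. The median difference of the Kupffer cell markers was 0.75, and 5 were not called. The scavenger receptor Marco rose by far more than that median, 6.27 ± 0.73, and the 1 that fell was Cd163 (-1.74 ± 0.19). Within females limma called 9 monocyte and macrophage, 6 neutrophil and 5 Kupffer cell markers higher, and 1 Kupffer cell marker lower. Within males it called 0 of them higher and 1 Kupffer cell marker lower, with median differences of 1.68, 1.18 and 0.47 for the same lists. Of 10 sinusoidal endothelial markers 3 rose and 2 fell, and the ranges of their mean levels overlapped, at 7.66 to 8.74 in KO livers and 7.95 to 8.65 in WT livers. Of 5 B cell markers 1 rose, Cd79b (0.55 ± 0.14). Of 8 T cell and NK cell markers, 7 stellate cell markers and 9 hepatocyte markers, limma called 0, with 2, 0 and 0 at an unadjusted p under 0.05. No marker of these lists lay at or below the negative control median on all 12 arrays. In whole tissue, more cells of a type and more RNA per cell cannot be told apart, and the part of the myeloid markers in the results below was not tested.

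Promoter windows are shown for the called genes that have an entry among the RefSeq promoters of GRCm38.p6. Entries were matched for 7 of the 10 genes, not for Tlr4, Cd14 and Ly96. Each window holds the 250 bases before an annotated start, 5′ to 3′ on the gene's strand. Capitals mark matches, on either strand, to the NF-kB consensus, the PU.1 motif AGGAAGT, the AP-1 motif TGANTCA or the STAT motif TTCNNNGAA.
Tlr2, minus strand, chr3:83841609-83841858: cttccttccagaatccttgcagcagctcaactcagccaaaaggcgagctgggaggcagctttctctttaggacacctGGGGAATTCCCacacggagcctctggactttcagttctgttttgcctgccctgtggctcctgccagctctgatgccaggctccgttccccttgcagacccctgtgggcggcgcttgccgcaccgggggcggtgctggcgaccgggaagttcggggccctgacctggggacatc
Tnfaip3, minus strand, first start, chr10:19015411-19015660: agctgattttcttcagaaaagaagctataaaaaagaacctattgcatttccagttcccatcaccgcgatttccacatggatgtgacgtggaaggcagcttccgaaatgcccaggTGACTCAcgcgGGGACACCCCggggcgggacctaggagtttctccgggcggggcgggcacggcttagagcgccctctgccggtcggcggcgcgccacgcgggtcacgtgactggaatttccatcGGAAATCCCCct
Myd88, minus strand, chr9:119340019-119340268: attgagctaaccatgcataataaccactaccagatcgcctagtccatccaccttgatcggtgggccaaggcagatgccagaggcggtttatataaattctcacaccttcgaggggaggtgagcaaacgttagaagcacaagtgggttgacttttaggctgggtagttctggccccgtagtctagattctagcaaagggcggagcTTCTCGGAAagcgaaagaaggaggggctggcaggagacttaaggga
Irak3, minus strand, first start, chr10:120201598-120201847: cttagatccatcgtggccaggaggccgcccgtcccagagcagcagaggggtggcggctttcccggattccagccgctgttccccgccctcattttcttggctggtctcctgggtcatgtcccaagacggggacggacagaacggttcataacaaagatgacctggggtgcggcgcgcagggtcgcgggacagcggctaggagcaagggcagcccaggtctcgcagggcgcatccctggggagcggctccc

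The 7 genes had 11 windows. The NF-kB consensus was matched in 2 of the 11, that of Tlr2 and the first of Tnfaip3, and in 7.25% of 32851 promoter windows of the same length. In Tlr2 a pair of overlapping matches spanned bases 173 to 163 before the start. Tnfaip3 had a match at 125 to 116 bases and another at 12 to 3 bases before its start, and an AP-1 match at 136 to 130 bases. AP-1 was matched in 6.75% of all windows and in 1 of the 11, with no match in another of the 7 genes. PU.1 was matched in 2 of the 11 windows, in Tlr1 and Tlr6 (7.69% of all windows). The STAT motif was also matched in 2 of the 11, in Myd88 and at the second start of Tlr1 (7.02%). Neither window of Irak3 and not that of Tlr5 held any of the 4 motifs, which says only that these letters are not in those windows.

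Irak3, on chromosome 10, encodes IRAK-M, the inhibitory member of the IRAK family. Its signal was 8.73, 7.70 and 8.37 in KO females 13, 40 and 69, against 5.27, 5.39 and 5.30 in WT females 25, 27 and 38. In males it was 7.89, 6.95 and 5.99 in KO mice 18, 19 and 39, against 5.34, 5.17 and 5.02 in WT mice 17, 23 and 33. All 6 KO livers lay above all 6 WT livers, and KO male 39 came nearest to the WT livers. The mean was 7.60 ± 1.0 in KO livers and 5.25 ± 0.13 in WT livers (SD, n = 6 each), a 5.11-fold difference on the deposited scale (limma adjusted p = 0.00144). The spread was wider among KO livers. WT signal was below the 95th percentile of the negative controls on all 6 arrays, while 5 of 6 KO arrays lay above it, so the size is not exact. Leaving out any 1 mouse gave differences of 2.12 to 2.59, each called. By sex the difference was 2.94 ± 0.40 in females (limma adjusted p = 0.00389) and 1.76 ± 0.40 in males, where it was not called (limma adjusted p = 0.0805). Without KO male 39 the male difference was 2.24 and was called (limma adjusted p = 0.0273).

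Tnfaip3 encodes A20 and lies, like Irak3 and Slc29a3, on chromosome 10. Its signal was 6.15, 5.51 and 6.04 in KO females 13, 40 and 69, against 4.72, 4.59 and 4.62 in WT females 25, 27 and 38. KO males 18, 19 and 39 had 5.45, 5.06 and 4.87, against 4.63, 4.54 and 4.62 in WT males 17, 23 and 33. Again no KO liver overlapped a WT liver, and the WT livers lay close together. The mean was 5.51 ± 0.51 in KO livers and 4.62 ± 0.06 in WT livers (SD, n = 6 each; 1.86-fold, limma adjusted p = 0.00243). All 12 values were below the negative controls' 95th percentile, so this fold is not exact. The difference was 1.26 ± 0.17 in females (limma adjusted p = 0.00419) and 0.53 ± 0.17 in males (limma adjusted p = 0.22, not called).

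Myd88, on chromosome 9, encodes the adaptor through which all of these receptors signal. Signal was 7.60, 7.15 and 8.13 in KO females 13, 40 and 69, against 6.30, 6.26 and 6.69 in WT females 25, 27 and 38, with no overlap. In males it was 6.87, 6.68 and 6.66 in KO mice 18, 19 and 39, against 6.50, 6.92 and 6.42 in WT mice 17, 23 and 33, and WT male 23 lay above all KO males. The difference was 1.21 ± 0.23 in females (2.31-fold, limma adjusted p = 0.0161) and 0.12 ± 0.23 in males, with a 95% interval of -0.40 to 0.64 (limma adjusted p = 0.906). The female call was lost without WT female 27 (limma adjusted p = 0.0541) and in a fit of the female arrays alone (0.0839). Averaged over the sexes it was called (limma adjusted p = 0.0303), but the call was lost when KO male 18, KO male 39, KO female 13, WT male 17, WT male 33, WT female 25 or WT female 27 was left out (limma adjusted p up to 0.0745). It was also not called after quantile normalization (limma adjusted p = 0.0606), with no sex term (limma adjusted p = 0.123), or without KO male 19 and WT female 38 together (limma adjusted p = 0.0553).

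Cd14 encodes the lipopolysaccharide co-receptor of monocytes, macrophages and neutrophils, and lies on chromosome 18. KO females 13, 40 and 69 had 6.71, 6.80 and 6.98, against 5.30, 5.21 and 5.06 in WT females 25, 27 and 38. The 3 KO females lay close together and above every WT female. KO males 18, 19 and 39 had 6.00, 5.35 and 5.28, against 4.94, 5.33 and 4.81 in WT males 17, 23 and 33, and KO male 39 lay below WT male 23. Over both sexes the means were 6.19 ± 0.75 in KO livers and 5.11 ± 0.21 in WT livers (SD, n = 6 each; 2.11-fold, limma adjusted p = 0.00173), and the call held when any 1 mouse was left out. Females differed by 1.64 ± 0.19 (3.12-fold, limma adjusted p = 0.00225) and males by 0.51 ± 0.19 (limma adjusted p = 0.285), with a male value of 0.29 when KO male 18 was left out. Above the 95th percentile of the negative controls lay 2 of 6 KO arrays and 0 of 6 WT arrays, so the folds are not exact.

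Ly96, on chromosome 1, encodes MD-2, the lipid-binding partner of TLR4, and its signal was above the 95th percentile of the negative controls on all 12 arrays. KO females 13, 40 and 69 had 9.97, 10.48 and 11.06, against 12.01, 11.32 and 12.02 in WT females 25, 27 and 38. KO males 18, 19 and 39 had 11.81, 9.82 and 11.52, against 12.08, 12.46 and 11.93 in WT males 17, 23 and 33. Within each sex every KO liver lay below every WT liver, whereas across sexes KO males 18 and 39 overlapped WT female 27. The difference was -1.19 ± 0.34 with a 95% interval of -1.94 to -0.44, just outside the call (limma adjusted p = 0.0527). It was -1.28 ± 0.48 in females and -1.11 ± 0.48 in males, and the male value was -0.49 without KO male 19. Over both sexes it was called after quantile normalization (-1.23, limma adjusted p = 0.0421), with median-centred arrays (-1.26, limma adjusted p = 0.0322), with dim features left out (limma adjusted p = 0.0211, 10483 features tested) and with robust eBayes (limma adjusted p = 0.0466). With dim features left out the difference itself was unchanged, at -1.19 ± 0.35, and 4993 of the 10483 features were called. Leaving out KO male 19 gave -0.89 (limma adjusted p = 0.0346) and leaving out KO male 18 gave -1.38 (limma adjusted p = 0.0356). It was -2.37 ± 0.77 with the poly-A covariate and -2.96 ± 0.84 with the negative control covariate, neither called (limma adjusted p = 0.388 and 0.288).

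**Figure D2:**
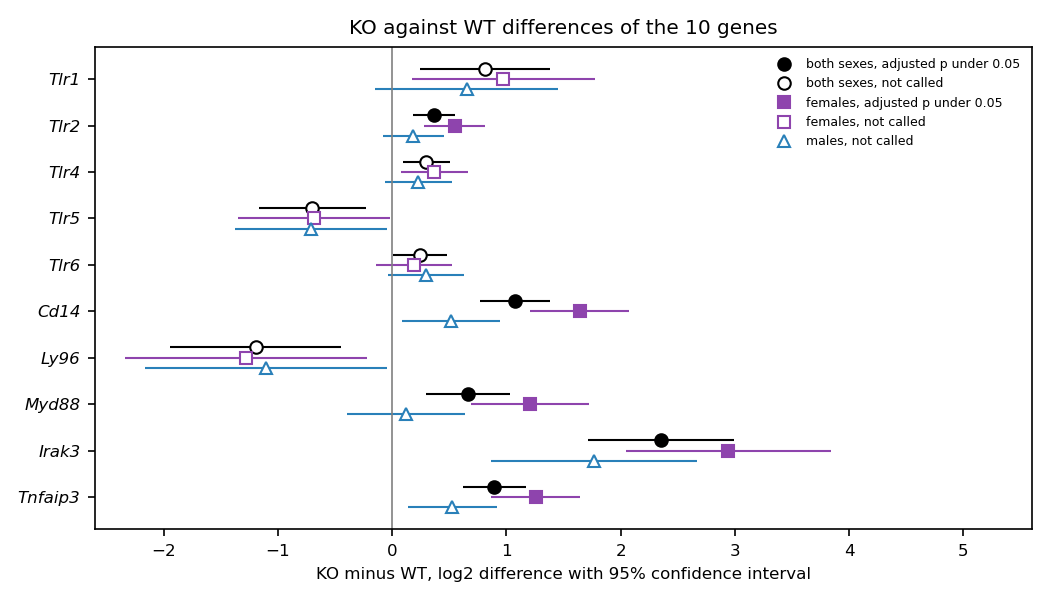
KO minus WT log2 difference (horizontal axis, with 95% confidence intervals from the limma fit) of the 10 genes, over both sexes (circles), in females (squares) and in males (triangles). Filled symbols had an adjusted p under 0.05: Tlr2, Cd14, Myd88, Irak3 and Tnfaip3 are filled over both sexes and in females, and no male symbol is filled.

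Tlr2, on chromosome 3, is the shared subunit of the lipoprotein receptors and was the receptor of the 5 that rose. KO females 13, 40 and 69 had 5.22, 5.63 and 5.14, against 4.73, 4.83 and 4.79 in WT females 25, 27 and 38, with no overlap. KO males 18, 19 and 39 had 4.99, 4.79 and 4.78, against 4.68, 4.60 and 4.71 in WT males 17, 23 and 33, also with no overlap. The size was small, 0.37 ± 0.08 over both sexes (1.29-fold, limma adjusted p = 0.0217), 0.55 ± 0.12 in females (limma adjusted p = 0.0264) and 0.19 ± 0.12 in males (limma adjusted p = 0.588). The female call was lost without WT female 25, 27 or 38 (limma adjusted p up to 0.0862), with median-centred arrays (0.0583) and in a fit of the female arrays alone (0.116). All 12 values were below the 95th percentile of the negative controls, so the sizes are not exact. The call over both sexes was lost without WT male 23 (limma adjusted p = 0.0571), WT female 38 (0.0502) or KO male 18 (0.0537), and after quantile normalization (0.055) or median centring (0.0597). It was lost with no sex term (limma adjusted p = 0.108) and without KO male 19 and WT female 38 together (limma adjusted p = 0.0683) too.

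Tlr1 and Tlr6, closely related neighbours on chromosome 5, encode the partners of TLR2. Because their sequences are alike, signal shared between their features cannot be separated here. Tlr1 was 4.22, 5.47 and 4.59 in KO females 13, 40 and 69, against 3.89, 3.63 and 3.85 in WT females 25, 27 and 38. It was 5.27, 3.90 and 4.24 in KO males 18, 19 and 39, against 3.82, 3.87 and 3.75 in WT males 17, 23 and 33. Every KO liver lay above every WT liver, but the KO livers were spread widely (SD 0.63), with female 40 and male 18 far above the others. The nearest values were 3.90 in KO male 19 and 3.89 in WT female 25, whose arrays had negative control medians of 3.86 and 3.79. All 12 Tlr1 values lay below the 95th percentile of the negative controls, so neither this separation nor the size is exact. The difference, 0.81 ± 0.25 (95% interval 0.25 to 1.38), was not called (limma adjusted p = 0.0763) and was called without KO male 19 (0.96, limma adjusted p = 0.041). Tlr6 was 3.69 to 4.26 in KO livers, median 3.99, and 3.53 to 3.97 in WT livers, median 3.76, and lay above the negative control median on 6 of 12 arrays. It overlapped in both sexes and was not called (0.24 ± 0.11, limma adjusted p = 0.197).

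Tlr4, on chromosome 4, encodes the lipopolysaccharide receptor. It ranged from 4.76 to 5.40 in KO livers, median 5.11, and from 4.64 to 4.93 in WT livers, median 4.81. The KO females, at 5.21, 5.40 and 5.0, lay above the WT females, at 4.93, 4.74 and 4.83, whereas KO male 19, at 4.76, lay among the WT males, at 4.86, 4.79 and 4.64. The difference of 0.30 ± 0.09 missed the threshold (limma adjusted p = 0.074) and passed it without KO male 19 (0.36, limma adjusted p = 0.0296) or KO female 69 (0.35, limma adjusted p = 0.0477).

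Tlr5, on chromosome 1, encodes the flagellin receptor and was the receptor with a lower mean in KO livers. KO females 13, 40 and 69 had 4.71, 5.29 and 4.58, against 5.03, 5.38 and 6.23 in WT females 25, 27 and 38. KO males 18, 19 and 39 had 5.05, 5.04 and 5.08, against 5.62, 6.17 and 5.50 in WT males 17, 23 and 33. The males did not overlap, and the KO males were nearly alike (SD 0.02), while the females overlapped through KO female 40. The difference of -0.70 ± 0.21 was not called (limma adjusted p = 0.0688). It was -0.69 ± 0.30 in females and -0.71 ± 0.30 in males, and the female value was -0.34 without WT female 38. Over both sexes it was called after quantile normalization (-0.78, limma adjusted p = 0.0431) and median centring (-0.77, limma adjusted p = 0.048), and without WT female 25 (-0.83, limma adjusted p = 0.0332) or KO female 40 (-0.80, limma adjusted p = 0.045). It was -0.09 ± 0.51 with the poly-A covariate and -0.59 ± 0.65 with the negative control covariate. Of the 12 values, 1 lay above the 95th percentile of the negative controls, that of WT female 38.

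The rises were larger in females than in males for each of the 5 called genes, but no such difference passed its own test. In females the same 5 genes were called as over both sexes, all higher, while 6.19% of features were called in females, 3.13% rising and 3.06% falling. In males limma called 0 of the 10, while 1.09% of features were called, 0.579% rising and 0.506% falling, and 5 of the 10 had an unadjusted p under 0.05 (Tlr5, Cd14, Ly96, Irak3 and Tnfaip3). Of genes with a feature of their own, 3.65% rose and 5.76% fell in females, and 0.736% rose and 0.959% fell in males. The median difference of the 10 genes was 0.76 in females and 0.26 in males. Tested directly, the female minus male contrast of the differences called 0 of the 10 genes, against 0.00152% of all features, with 3 genes at an unadjusted p under 0.05. These were Cd14 (1.13 ± 0.27, limma adjusted p = 0.367), Myd88 (1.09 ± 0.33, limma adjusted p = 0.513) and Tnfaip3 (0.73 ± 0.25, limma adjusted p = 0.605). Without overlap, every KO value lay above every WT value for 3 genes over both sexes (1.97% of features), for 7 genes in females (17.3%) and for 4 in males (11.1%). Over both sexes Tlr1, 1 of those 3, was apart only narrowly, with 3.90 against 3.89 at the nearest. Every KO value lay below every WT value for 0 genes over both sexes (1.94% of features), for Ly96 in females (8.35% of features) and for Ly96 and Tlr5 in males (7.49%).

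The order of the KO mice differed between genes. KO female 40 was the highest KO liver for Tlr1, Tlr2, Tlr4, Tlr5 and Tlr6, that is, for all 5 receptors. KO females 13 and 69 were the highest for Irak3, Tnfaip3, Myd88 and Cd14, at 2 genes each. KO male 39 was the lowest KO liver for 6 of the 10 genes, and KO male 18 the highest KO male for 8 of them. The mean level of the monocyte and macrophage markers was 8.60, 10.43 and 8.56 in KO females 13, 40 and 69 and 8.79, 7.50 and 7.05 in KO males 18, 19 and 39. Neutrophil markers were at 7.40, 6.95 and 7.38 in the same females and at 7.86, 6.50 and 4.92 in the same males. KO female 40 thus had the highest macrophage marker level and the lowest neutrophil marker level among KO females, and KO male 39 the lowest of both among KO males. Poly-A spikes were lowest on the array of KO female 69 (5.10) and highest among KO arrays on that of KO male 19 (6.06). The relation of these levels to the 10 genes was not tested.

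**Figure D3:**
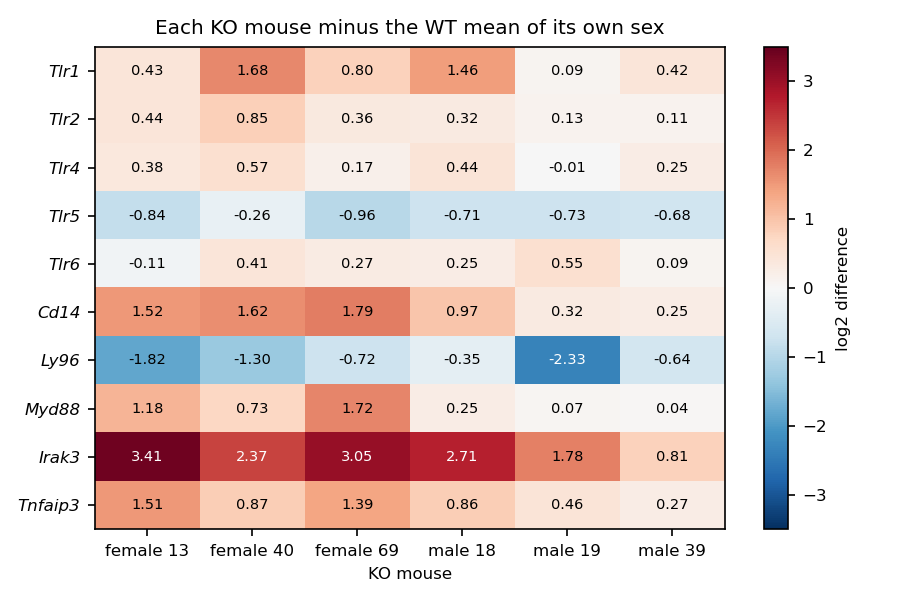
Signal of each KO mouse minus the mean of the 3 WT mice of its own sex (log2 difference, printed in each cell and as colour) for the 10 genes (rows) in KO females 13, 40 and 69 and KO males 18, 19 and 39 (columns). Irak3 is above the WT mean in every KO mouse, from 0.81 to 3.41, and Ly96 and Tlr5 are below it in every KO mouse.

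Other genes of the pathway were counted by role. Of 94 listed genes outside the 10, 88 had a feature of their own, and 26 rose, 4 fell and 58 were not called, with a median difference of 0.22 beside 0.05 over all features. For these and the list counts below, the shares over all features were 5.28% rising and 4.47% falling. Among genes with a feature of their own they were 5.82% and 8.33%. Among 7 endosomal Toll receptors, 2 rose: Tlr8, a sensor of RNA, by 1.63 ± 0.27 (limma adjusted p = 0.00541) and Tlr9, a sensor of DNA, by 0.43 ± 0.10 (limma adjusted p = 0.0200). Tlr8 lay above the negative controls' 95th percentile on 2 of 6 KO arrays and Tlr9 on 0, and both on 0 of 6 WT arrays, so their sizes are not exact. Unc93b1, which carries endosomal receptors out of the endoplasmic reticulum, was the 1 of 8 genes of ligand binding, folding and transport that rose (1.20 ± 0.30). Lbp, the serum protein that transfers lipopolysaccharide to CD14, was at 1.31 ± 0.38 and missed the threshold (limma adjusted p = 0.0563); it is named after its value was seen.

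Downstream adaptors and kinases moved both ways, with 5 of 15 higher, 3 lower and a median of 0.12. Pik3ap1, the adaptor BCAP that links Toll receptors to PI3 kinase, rose by 1.19 ± 0.15 and the tyrosine kinase Syk by 0.98 ± 0.17. Ube2n and Ube2v1, the enzyme pair that builds the ubiquitin chains used by TRAF6, fell by 1.25 ± 0.19 and 0.42 ± 0.06 on the log2 scale. Of 6 IKK and NF-kB subunits, Rel (0.74 ± 0.13) and Relb (0.22 ± 0.04) rose and none fell, with a median of 0.17.

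Brakes other than Irak3 and Tnfaip3 had 9 of 29 genes higher and 1 lower, with a median of 0.23. Cd180, a receptor that restrains TLR4 signalling in myeloid cells, rose by 1.75 ± 0.32, and its secreted partner Ly86, the MD-1 protein related to MD-2, rose by 2.51 ± 0.51. Ly86 was at 9.81 ± 1.51 in KO livers and 7.29 ± 0.38 in WT livers (SD, n = 6 each). Nfkbia, the NF-kB inhibitor that NF-kB itself induces, rose by 1.37 ± 0.29, and the inositol phosphatase Inpp5d by 0.67 ± 0.14. The 1 brake that fell was Usp18 (-1.62 ± 0.40), which is also an interferon-induced gene and is named here after its value was seen.

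Of 23 outputs of NF-kB, 7 rose and none fell, with a median of 0.26. Vcam1, an endothelial and macrophage adhesion molecule, rose by 3.77 ± 0.41, Saa3, an acute phase protein, by 1.02 ± 0.16, Birc3, an inhibitor of apoptosis, by 0.54 ± 0.09 and Tnf by 0.40 ± 0.05. Of the 23, 6 lay at or below the negative control median on all 12 arrays, and the means of Saa3, Birc3 and Tnf lay below the negative controls' 95th percentile in all 4 groups, which leaves their sizes uncertain. In these counts, too, the monocyte and macrophage markers were higher in KO livers, with a median difference of 2.40.

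**Figure D4:**
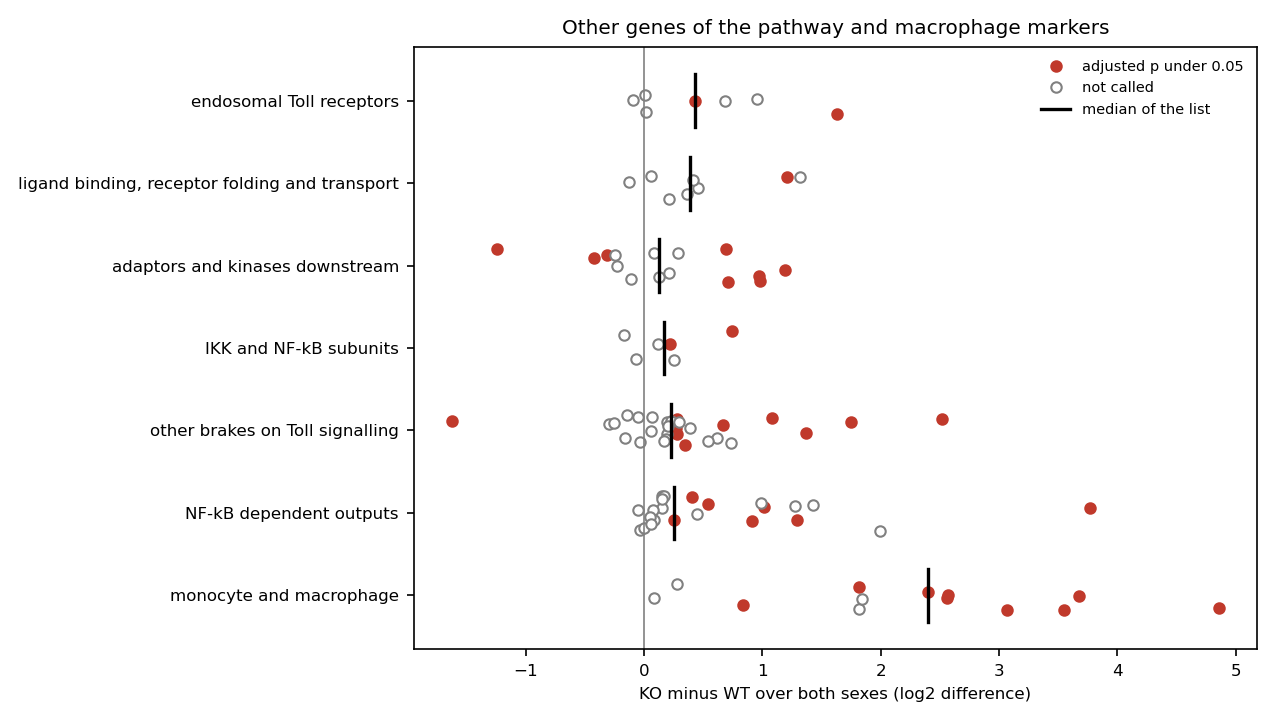
KO minus WT log2 difference over both sexes (horizontal axis) of each measured gene of 6 role lists and of the monocyte and macrophage markers (rows). Filled points had an adjusted p under 0.05, open points did not, and the bar is the median of the list, from 0.12 for downstream adaptors and kinases to 2.40 for the monocyte and macrophage markers.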

How the data were processed

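Total RNA from 12 livers was hybridised to 12 arrays, 1 per mouse, 3 mice in each of 4 groups. The values are log2 signals as deposited by the authors. Transcriptome Analysis Console is named in the submitters' processing notes; no source used here gives the normalization, genome build or batches. Values end at a ceiling of 19.93, so strong features are compressed, and the number of arrays limits the precision.

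The 6732 control features were set aside and 65956 transcript features kept, of which 30604 had 1 gene symbol, 2146 several and 33206 none in the platform table. limma 3.58.1 (R 4.3.3) fitted 4 group means with 8 residual degrees of freedom, and p-values were adjusted by Benjamini-Hochberg over all features. KO was set against WT as the average of both sexes, within each sex, and as the difference between the sexes. Exact permutation used 400 arrangements of genotype within sex. The fit was tested on simulated data. Alternatives changed scaling, the dim filter, the variance model, covariates and the mice included. The members and gene lists were chosen with earlier results of these data known. Named beside the members were Slc29a3, up to 4 called genes of each role list by smallest p, markers among the 3 of highest signal of their list, and genes said to be chosen after their values were seen.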

Additional observations from a re-analysis of the deposited data

How the results depend on the processing

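No difference of the 10 genes over both sexes changed sign under 203 alternative values, of which 163 kept their side of the threshold, 27 lost the call and 13 gained it. Leaving out 1 mouse at a time gave 4 to 8 of the 10 genes called over both sexes (8 without KO male 19), 3 to 6 in females and 0 to 1 in males. Over all features the same gave 4553 to 6599 calls over both sexes, 1581 to 4563 in females, 161 to 938 in males and 0 to 55 for the female minus male contrast. The largest changes came with array covariates. With the poly-A covariate limma called 3 features over both sexes, 74 in females, 0 in males and 5 for the contrast, and 0 of the 10 genes over both sexes and 0 in females, with 5 and 7 at an unadjusted p under 0.05. With the negative control covariate it called 25, 11, 3 and 0 features, and 0 of the 10 genes over both sexes and 0 in females, with 4 and 4 at an unadjusted p under 0.05. With poly-A the female differences were 3.62 ± 0.74 for Irak3, 1.83 ± 0.37 for Cd14, 1.39 ± 0.44 for Myd88, 1.30 ± 0.34 for Tnfaip3 and 0.57 ± 0.23 for Tlr2. With the negative controls they were 3.63 ± 1.18, 1.57 ± 0.58, 0.94 ± 0.69, 1.09 ± 0.52 and 0.71 ± 0.35 for the same genes. All these SEs were wider than without a covariate, so the values cannot show whether the sizes held. The cause of the lost calls was not tested. With dim features left out fewer genes were tested, 3 of the 10, namely Ly96, Myd88 and Irak3. Of these, 3 were called over both sexes, 2 in females and 1 in males. Calls were frequent in that setting: of 10483 features tested, 4993 were called over both sexes, 3825 in females and 1649 in males. Irak3, the 1 called in males, passed that filter only through its KO arrays (5 of 6 KO and 0 of 6 WT arrays above the 95th percentile), so its calls there are no separate support. That setting gave 21 features for the contrast. Without a sex term 3 of the 10 genes were called. With arrays of that sex alone 3 genes and 1853 features were called in females and 37 features in males, from fewer samples. Without KO male 19 and WT female 38 there were 3 genes over both sexes, 1959 features in females, 1130 in males and 57 for the contrast. Quantile normalization gave 1089 features in males and 0 for the contrast, against 716 and 1 on the deposited scale, and the contrast had 4 with median centring, 7 with an intensity trend and 2 with robust eBayes. No paired analysis was possible because no animal number occurs in more than 1 group. Signal within the negative controls on every array limits the sizes given for Tlr1, Tlr2, Tlr4, Tlr6 and Tnfaip3. It also limits those of Tlr5, Cd14 and Irak3. Above the 95th percentile lay 0 KO and 1 WT arrays for Tlr5, 2 and 0 for Cd14, and 5 and 0 for Irak3.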
